A study of Mus musculus with 13 samples.

Results

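IAPA_MM is a consensus sequence of the intracisternal A-particle (IAP) group, mouse endogenous retroviruses with long terminal repeats (LTRs). It is 1 of 262 retrotransposon consensus sequences for which small RNAs were tabulated, of which 237 are LTR elements, 19 are LINEs and 6 are SINEs. It was chosen by its 24- to 33-nt small RNAs, as read counts scaled to a common library total (RPM), which were more abundant in pachytene/diplotene spermatocytes than in spermatogonia, whereas those of IAPEz-int, the most abundant IAP entry, were less abundant. The levels along that course therefore describe how the sequence was chosen and were not tested.

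Small RNAs of C57BL6/J male germ cells, sorted by Hoechst-33342 staining from mice of 3 to 4 weeks, were sequenced in 13 libraries from 9 biological samples. One set held spermatogonia (SG, n = 1), leptotene/zygotene spermatocytes (LZ, n = 2), pachytene/diplotene spermatocytes (PD, n = 1) and round spermatids (RS, n = 1), with 1 library each. The other set, titled as technical replicates and written here as SG_T (n = 2) and LZ_T (n = 2), held spermatogonia and leptotene/zygotene spermatocytes, each sequenced in a 50-bp and a 100-bp run that were averaged. No label gives a genotype, but the first header cell of the SG_T and LZ_T tables names a *Pld6* knockout (KO), in which germ cells are lost before pachytene. Genotype, run and whatever else separates the sets cannot be told apart, and nothing in small RNA tables checks *Pld6* itself. Nothing in the labels says whether animals were pooled, so p-values measure the spread between these samples.

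PIWI-interacting RNAs (piRNAs) guide PIWI proteins to complementary RNA. Antisense piRNAs can direct cleavage of the transcript of a retrotransposon, and sense piRNAs are cut from that transcript. PIWIL2 (MILI) binds shorter piRNAs and is present in prospermatogonia and later germ cells, PIWIL1 (MIWI) binds longer ones from the pachytene stage, and PLD6 (MitoPLD, ZUC) is a mitochondrial protein needed for primary piRNA production. IAPs are among the youngest and most active retroviruses of the mouse genome.

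The libraries held 12541019 to 29956080 reads in the first set and 852565 to 7725276 in the second. Reads of 24–33 nt made up 29.8% of the SG library, 39.3% and 45.2% of the LZ libraries, 84.5% of PD, 83.1% of RS and 12.4% to 24.8% of the SG_T and LZ_T libraries, so RPM over all reads divides by very different backgrounds. Reads of 24–33 nt began with U in 65.8% to 86.9% of cases in the first set and 29.9% to 43.5% in the second. Their most frequent length was 26 to 30 nt in the first set and 24 nt in the second. The SG sequence list ended in a line without a count and may be cut short, which could affect its depth, its share of 24- to 33-nt reads, its miRNA levels and values scaled to 24- to 33-nt reads. Of 8 marker miRNAs, 5 could be measured. The summed level of the meiotic pair miR-34b-5p and miR-449a-5p was 5.87 RPM in SG, 27.1 to 40.9 in the LZ samples, 104 in PD and 197 in RS, but 0 to 6.98 in SG_T and 6.38 to 18.2 in LZ_T. The summed level of the somatic pair miR-202-5p and miR-126a-3p was 375 RPM in SG, 70.6 to 165 in the LZ samples, 4.21 in PD, 5.10 in RS, 665 to 1431 in SG_T and 3484 to 8445 in LZ_T. The high sums in LZ_T came from miR-202-5p, at 2493 to 7527 RPM beside 240 to 482 in SG_T, whereas miR-126a-3p overlapped, at 556 to 1313 and 426 to 957 RPM. Their part in the results below was not tested. miR-146a-5p, a marker of undifferentiated spermatogonia, was at 19.6 RPM in SG, 51.8 to 124 in the LZ samples, 1.5 in PD, 3.75 in RS, 14.3 to 51.1 in SG_T and 37.2 to 60.7 in LZ_T, so it did not set the spermatogonial libraries apart. In such bulk samples, fewer cells of a type and less RNA per cell cannot be told apart.

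Small RNAs antisense to IAPA_MM were few in spermatogonia and abundant in every later stage of the first set. Antisense 24- to 33-nt RNAs stood at 96.6 RPM in SG, 499 and 527 in the LZ samples, 1352 in PD and 650.5 in RS. Both LZ samples thus lay more than 5-fold above the SG sample, and the PD level was 14.0-fold the SG level. Sense RNAs took another course, at 146 RPM in SG, 99.4 and 179 in the LZ samples, 55.4 in PD and 52.5 in RS. The SG sense level lay between the 2 LZ samples, and the PD sense level was 0.379 of that in SG. Over both strands the levels were 243 RPM in SG, 598 and 705 in the LZ samples, 1408 in PD and 703 in RS. The first set has 1 library in SG, PD and RS, so these steps have no replicate check. The log2 ratio from SG to LZ was 1.43 beside an SD of 0.168 between the LZ samples, and that from LZ to PD was 1.11.

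**Figure D1:**
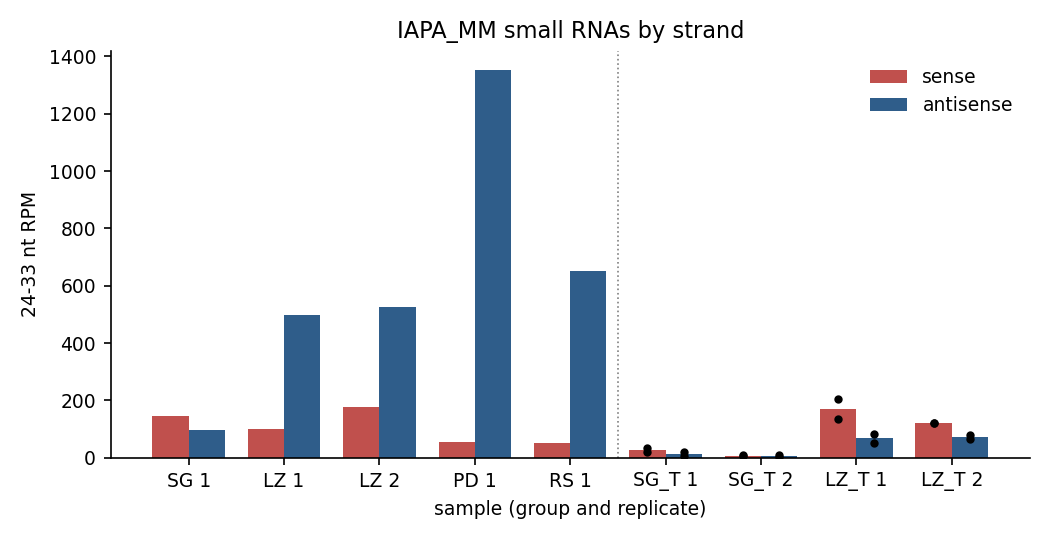
Sense and antisense 24- to 33-nt RPM of IAPA_MM in each of the 9 samples. Bars are sample values, black points are the 2 sequencing runs where a sample had 2, and the dotted line parts the single-library set from the SG_T and LZ_T samples. Antisense exceeds sense from LZ to RS, up to 1352 RPM in PD, and sense exceeds antisense in SG, SG_T replicate 1 and both LZ_T samples.

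These levels are read against all sequences with at least 10 RPM in one of the stages compared. From SG to LZ, 28.7% of 87 were higher by over 2-fold on both strands together, 1.15% were lower by as much, and 17 had a higher ratio than IAPA_MM. On the antisense strand 28.8% of 66 were higher and 1.52% lower by over 2-fold, and 9 exceeded the 5.31-fold difference of IAPA_MM. From LZ to PD, 23.4% of 94 were higher and 42.6% lower by over 2-fold, and the median log2 ratio was −0.67. On the antisense strand of that step 20% of 70 were higher and 30% lower, and on the sense strand 63.5% of 74 were lower, so the low sense level of IAPA_MM was shared by most sequences and its higher antisense level was not. From PD to RS, 44.7% of 85 were lower by over 2-fold on both strands together and 63.3% of 60 on the antisense strand, IAPA_MM among them in both. Across the whole course from SG to PD, the contrast used for the choice, 32.6% of 92 were higher on both strands together and 35.2% of 71 on the antisense strand. In order of RPM gained, IAPLTR2b (1536) and RMER17A2 (1330) stood above IAPA_MM (1165) and IAPLTR3-int (448) stood below it. From SG to PD the antisense strand of IAPA_MM differed by 1256 RPM and the sense strand by −90.7 RPM, so the higher level was on the antisense strand alone.

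The antisense share of IAPA_MM was higher in every later stage than in spermatogonia. It was 39.8% in SG (95% Wilson interval 38.1 to 41.5), 83.4% and 74.7% in the LZ samples, 96.1% in PD (95.8 to 96.3) and 92.5% in RS (92.0 to 93.1). These intervals cover counting error only. Among sequences with at least 10 RPM, the median antisense share was 41.5% in SG, 47.7% and 40.6% in the LZ samples, 68.0% in PD and 53.7% in RS. In SG, 38 of 70 such sequences had a higher antisense share than IAPA_MM, whereas 7 of 84 did in PD and 7 of 75 in RS. The other IAP sequences together were mostly antisense in PD and RS too. Their antisense share was 30.9% in SG, 55.0% and 43.1% in the LZ samples, 88.7% in PD and 85.8% in RS. IAPA_MM stood above this sum in all 5 samples, and the gap was widest in the LZ samples. IAPEz-int was the largest part of the sum, and single entries lay on either side of IAPA_MM. IAPLTR3-int stood at 79.2% in SG, 85.1% over the LZ means and 92.2% in PD. IAPLTR2b stood at 75.0%, 95.9% and 99.5% in the same order, and IAPEz-int at 27.6%, 41.8% and 83.8%. A high antisense share is thus not particular to IAPA_MM.

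**Figure D2:**
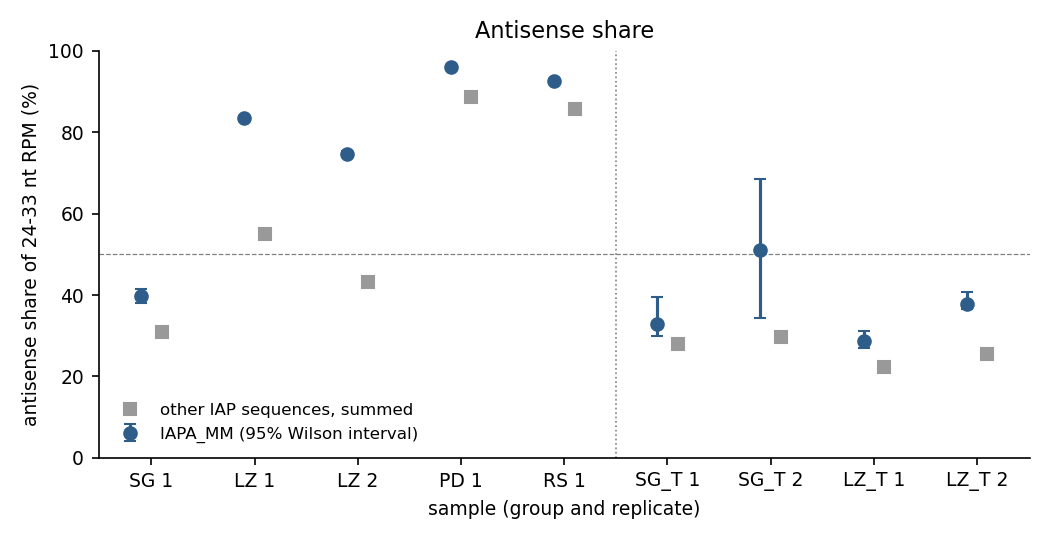
Antisense share of 24- to 33-nt RPM, in percent, for IAPA_MM (circles, with 95% Wilson intervals from the pooled reads of a sample) and for the other 24 IAP sequences summed (squares). IAPA_MM lies at 74.7% to 96.1% in the LZ samples, PD and RS, and at 28.7% to 51.0% in SG, SG_T and LZ_T.

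The length of the antisense RNAs differed between stages as well. Antisense RNAs of 24–27 nt, the shorter piRNA class, were at 53.8 RPM in SG, 276 and 315 in the LZ samples, 262 in PD and 49.7 in RS. Those of 28–33 nt were at 42.8 RPM in SG, 223 and 211 in the LZ samples, 1090 in PD and 601 in RS. Both classes were higher in LZ than in SG, while from the LZ mean to PD the longer class differed by 873 RPM and the shorter class by −33.6 RPM. PD lay above both LZ samples in the longer class and below both in the shorter one. The longer class was thus 44.3% of antisense 24- to 33-nt RNAs in SG, 44.7% and 40.1% in the LZ samples, 80.6% in PD and 92.4% in RS. All 24- to 33-nt reads of these libraries followed a like course, with 41.9% of 28–33 nt in SG, 42.9% and 42.1% in the LZ samples, 71.8% in PD and 87.3% in RS. Sense RNAs of 24–27 nt were at 73.1 RPM in SG, 41.8 and 76.9 in the LZ samples, 9.02 in PD and 9.38 in RS, and sense RNAs of 28–33 nt were at 73.1 RPM in SG, 57.6 and 102 in the LZ samples, 46.4 in PD and 43.2 in RS. On the sense strand the shorter class was therefore the one with low values in PD and RS.

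Outside the piRNA lengths antisense RNAs did not prevail in every stage. At 19–23 nt, antisense RNAs were at 28.7 RPM in SG, 54.2 and 57.8 in the LZ samples, 55.2 in PD and 30.7 in RS, beside 39.1, 33.1, 53.6, 29.0 and 65.0 RPM of sense RNAs in the same order. At 11–18 nt, antisense RNAs were at 15.6 RPM in SG, 41.1 and 40.2 in the LZ samples, 44.3 in PD and 26.95 in RS, and sense RNAs at 51.9, 48.5, 64.3, 21.4 and 41.9 RPM in the same order. Sense thus exceeded antisense in SG and RS at 19–23 nt, and in all but the PD sample at 11–18 nt. At 34–48 nt, above the piRNA range, sense RNAs were the more abundant in all 5 samples, at 3.62 to 10.2 RPM against 0.08 to 3.58 RPM antisense.

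**Figure D3:**
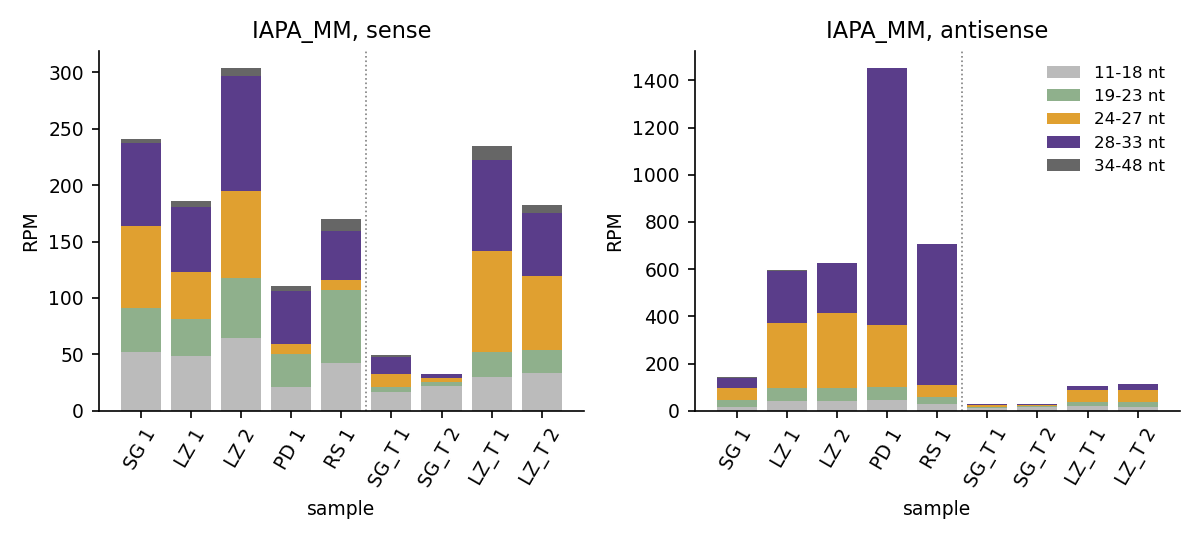
RPM of IAPA_MM small RNAs in 5 length classes, stacked, for the sense strand (left) and the antisense strand (right, on its own scale) in each sample. The PD and RS antisense bars are mostly 28–33 nt, 1090 and 601 RPM, and the LZ antisense bars hold both piRNA classes.

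IAPA_MM ranked higher, and IAPEz-int had fewer reads, in PD and RS than in SG. IAPEz-int is the internal region of the young IAPEz retroviruses. Its 24- to 33-nt RNAs were at 6982 RPM in SG, 4996 and 9694 in the LZ samples, 3099 in PD and 1161 in RS. The ratio of IAPA_MM to IAPEz-int was 0.0348 in SG, 0.120 and 0.0728 in the LZ samples, 0.454 in PD and 0.605 in RS. Antisense RNAs of IAPEz-int were at 1925 RPM in SG and 2599 RPM in PD, and its sense RNAs were at 5057 RPM in SG and 501 RPM in PD. By RPM on both strands IAPA_MM ranked 22nd of 262 in SG, 12th and 11th in the LZ samples, 3rd in PD and 2nd in RS. It made up 0.738% of the RPM of all listed retrotransposons in SG, 2.71% and 1.87% in the LZ samples, 9.23% in PD and 10.8% in RS. Of the antisense RPM alone it held 0.888% in SG and 16.2% in RS.

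Scaling changed the size of the later steps. Scaled to the 24- to 33-nt reads of a library in place of all its reads, IAPA_MM stood at 814 RPM in SG, 1325 and 1794 in the LZ samples, 1666 in PD and 846 in RS. On that scale PD lay between the LZ samples and RS was close to SG. Relative to all listed retrotransposons the share was highest in RS, so the order of PD and RS depended on the scale used.

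Of 25 IAP entries, 15 were listed as LTRs and 10 were not, the latter including IAPLTR3-int and IAPLTR4_I despite their names. All of the 10 and 11 of the 15 reached 10 RPM in some sample. Among the 10 entries not listed as LTRs, IAPA_MM and IAPLTR3-int were the 2 with more RPM in PD than in SG. Their log2 ratios were 2.54 and 2.26. The other 8 were lower in PD, from −0.68 for IAPEY5_I to −3.49 for IAP1-MM_I, and the median of the 10 was −1.15. Of the 11 LTR entries 6 were higher in PD than in SG, led by IAPLTR2b at 3.96. IAPLTR2b differed from IAPA_MM after pachytene. It was at 1642 RPM in PD and 119 RPM in RS, a log2 ratio of −3.79. IAPA_MM made up 2.66% of the summed IAP RPM in SG, 7.23% and 5.06% in the LZ samples, 18.6% in PD and 26.0% in RS.

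Over the 9 samples, the sequences whose log2(RPM + 1) was most like that of IAPA_MM were IAPLTR3-int (Pearson r = 0.988), IAPLTR2b (0.918), IAPLTR2a (0.890), ERVB4_1B-I_MM (0.885) and RLTR45-int (0.879). These correlations are descriptions over samples that share libraries and depth and that include the SG_T and LZ_T samples with low values throughout. IAPLTR3-int was at 118 RPM in SG, 304 and 361 in the LZ samples, 567 in PD and 382 in RS. The ratio of IAPA_MM to IAPLTR3-int was 1.84 to 2.48 in the first set and 3.66 to 4.39 in the second. Reads that matched several consensus sequences equally well were divided among them, so values of near-identical IAP entries are not independent of each other, and how many reads IAPA_MM shared was not tested.

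**Figure D4:**
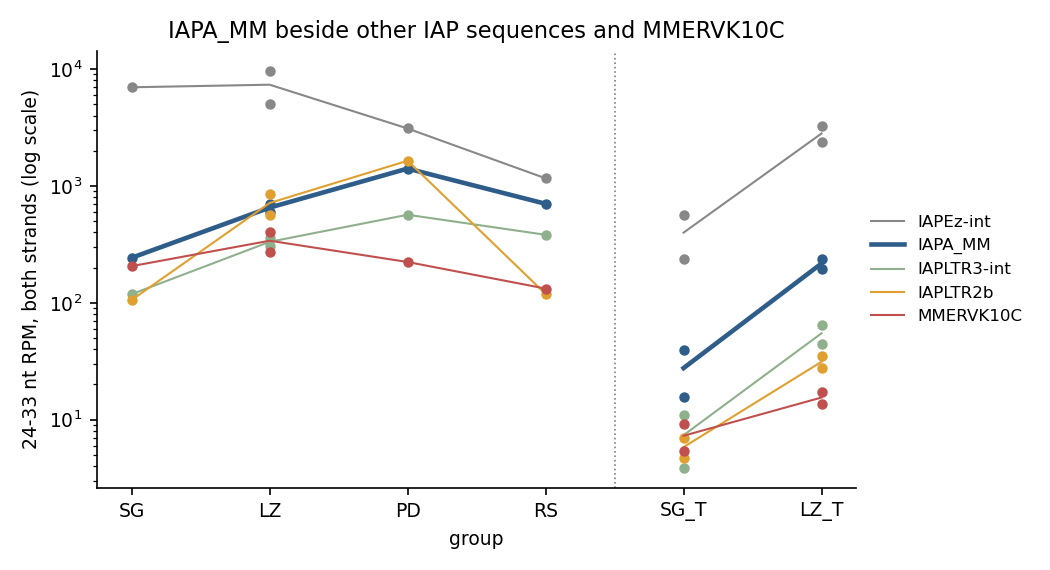
24- to 33-nt RPM on both strands, on a log scale, for IAPA_MM, 3 other IAP sequences and the retrovirus MMERVK10C. Points are samples and lines join group means within each set. IAPA_MM is higher in PD (1408 RPM) than in SG (243 RPM), IAPEz-int is lower, and all 5 sequences are higher in LZ_T than in SG_T.

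The LZ_T and LZ samples are of the same stage, and their comparison addresses which IAPA_MM RNAs were fewer in the tables that carry the *Pld6* KO name. Antisense RNAs were at 68.6 and 73.8 RPM in LZ_T against 499 and 527 in LZ. The groups did not overlap, and the ratio of their means was 7.20-fold. Sense RNAs were at 170.0 and 122 RPM in LZ_T against 99.4 and 179 in the LZ samples, and the groups overlapped. By limma on log2(RPM + 1), antisense RNAs of IAPA_MM fell by 2.83 on the log2 scale (SE 0.217, adjusted p = 0.000534), and 86.0% of 136 tested sequences were called lower and 3.68% higher on that strand. Tested sequences averaged 1 RPM or more over both groups together. Some entered through LZ alone, and for these a lower call was close to fixed by the filter. Sense RNAs differed by 0.11 (SE 0.393, adjusted p = 0.808), with a 95% interval from −0.97 to 1.19, whereas 74.3% of the 136 were called lower. The median sense change over all sequences was −2.06, and 7 had a higher one than IAPA_MM. On both strands together IAPA_MM fell from 652 ± 75.5 RPM (SD, n = 2) in LZ to 217 ± 30.4 (SD, n = 2) in LZ_T, by 1.58 on the log2 scale (adjusted p = 0.000502 by limma), and 91.9% of sequences were called lower with a median of −2.87. For both strands together limma gave every sequence the same standard error, 0.445, so that p rests on the spread of all sequences.

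Scaled to 24- to 33-nt reads, the call on both strands together was lost. The log2 difference of both strands was then −0.37 with an adjusted p of 0.491 by limma, and that of the antisense strand was −1.63 with an adjusted p of 0.00878. On this scale both strands stood at 1325 and 1794 RPM in LZ and 1167 and 1189 in LZ_T. The antisense share was 83.4% and 74.7% in LZ and 28.7% and 37.8% in LZ_T. Sense RNAs on this scale were thus higher in both LZ_T samples than in both LZ samples, though limma did not call the difference. The 24- to 33-nt reads began with U in 74.8% and 72.1% of cases in LZ and 32.9% to 43.5% in the LZ_T libraries. This scale thus does not divide by like reads in the 2 groups. Somatic miRNA was higher in every LZ_T library (3484 to 8445 RPM) than in LZ (70.6 and 165 RPM), and its part in these differences was not tested.

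The unequal change of the strands was tested directly with the log2 ratio of antisense to sense, a fit added after the data were seen. For IAPA_MM this ratio fell by 2.94 (SE 0.367, adjusted p = 0.000253 by limma) from LZ to LZ_T. The median over the 136 sequences was −0.12, 30.1% were called lower and 26.5% higher, and 6 had a more negative value than IAPA_MM. As a share, antisense RNAs of IAPA_MM were 79.0% ± 6.17 (SD, n = 2) in LZ and 33.3% ± 6.37 (SD, n = 2) in LZ_T, with no overlap. An exact permutation test of 2 against 2 samples gave p = 0.333, two-sided, the smallest p it allows. The antisense share in LZ_T, 28.7% and 37.8%, was near that of the SG sample at 39.8%.

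The other IAP sequences differed among themselves in how the strands changed. Of 25 IAP entries 21 were tested. On the antisense strand all 21 were called lower, beside 86.0% of all sequences, with a median log2 change of −2.65 against −2.23. Some of the 21 passed the filter through LZ alone, such as IAPLTR3 at 23.6 RPM in LZ and 0.1025 in LZ_T. The count of lower calls is therefore partly set by the filter. On the sense strand 10 were called lower, beside 74.3%, with a median of −0.87 against −2.06. The ratio of antisense to sense was called lower for 9 of the 21, beside 30.1% of all sequences, namely IAPA_MM, IAPEz-int, IAPLTR3-int, IAPLTR2_Mm, IAPLTR2a, IAPLTR2a2_Mm, IAPLTR2b, IAPEY2_LTR and IAPEY3_LTR. It was called higher for 4, beside 26.5%, namely IAP1-MM_I, IAPEy-int, IAPEY3C_LTR and IAPEY5_I. Adding 1 RPM to each strand draws this ratio toward equal strands where LZ_T levels are near 0. IAPEY3_LTR was called lower at 0.055 RPM antisense in LZ_T, although its antisense share was 91.3% in LZ and 100% in LZ_T. Calls on entries this low, such as IAPEY2_LTR (0.25 RPM antisense in LZ_T) and IAPEY3C_LTR (0.2225), cannot tell strand balance from low level. IAPEz-int had a sense log2 change of −0.87 (adjusted p = 0.177 by limma) and an antisense change of −2.23 (adjusted p = 0.0022). MMERVK10C, another endogenous retrovirus, fell on both strands, by 4.15 on the sense strand and by 4.70 on the antisense strand. L1_Mm_orf2, the second open reading frame of the LINE-1 element, fell by 2.94 on the sense strand and by 5.01 on the antisense strand. B1_Mm, a SINE, was 1 of the 2.21% of sequences called higher on both strands together, at 7860 RPM in LZ_T and 1425 RPM in LZ.

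**Figure D5:**
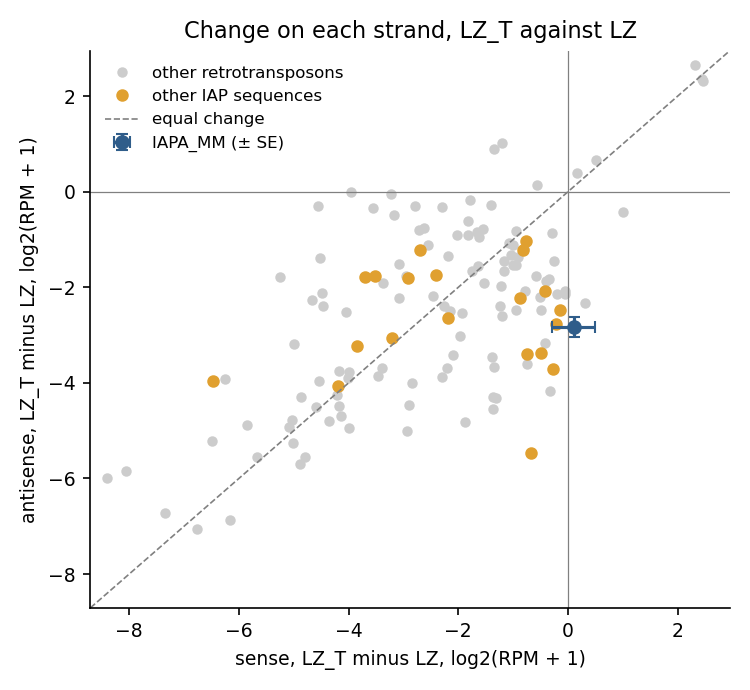
Log2 change from LZ to LZ_T in sense RNAs (x axis) and antisense RNAs (y axis), on the log2(RPM + 1) scale, for the 136 tested sequences. IAPA_MM lies at 0.11 and −2.83, to the right of the other IAP sequences and below the dashed line of equal change.

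The longer antisense class stood further below its LZ level than the shorter one. Antisense RNAs of 28–33 nt were at 18.7 and 23.7 RPM in LZ_T, where the LZ samples had 223 and 211, a 10.2-fold lower mean. Antisense RNAs of 24–27 nt were at 49.9 and 50.2 RPM, a 5.91-fold lower mean. Sense RNAs of 24–27 nt were at 89.6 and 65.1 RPM in LZ_T and 41.8 and 76.9 in the LZ samples, and those of 28–33 nt at 80.4 and 56.6 RPM and 57.6 and 102. The share of the longer class among antisense RNAs was 27.3% and 32.0% in LZ_T against 44.7% and 40.1% in the LZ samples, without overlap, a difference of −12.7 percentage points (exact permutation p = 0.333, two-sided, the smallest possible). Among sense RNAs it was 46.9% ± 0.557 (SD, n = 2) in LZ_T and 57.5% ± 0.692 (SD, n = 2) in LZ. Among all 24- to 33-nt reads, by contrast, the LZ_T libraries held 46.0% to 51.3% of 28–33 nt, more than the LZ libraries. Other IAP entries went either way, so the lower share of longer antisense RNAs is not particular to IAPA_MM. From LZ to LZ_T that share went from 44.9% to 32.8% for IAPLTR3-int. It went from 49.6% to 54.8% for IAPEz-int and from 44.7% to 60.6% for IAPLTR2b. It was not compared over all sequences.

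Within the second set, IAPA_MM RNAs were fewer in spermatogonia than in leptotene/zygotene spermatocytes on both strands. Sense RNAs were at 26.7 and 7.6 RPM in SG_T and at 170.0 and 122 RPM in LZ_T. Antisense RNAs were at 13.0 and 7.9 RPM in SG_T and at 68.6 and 73.8 RPM in LZ_T. Neither strand overlapped between the groups. By limma on log2(RPM + 1), sense RNAs rose by 3.23 (SE 0.381, adjusted p = 5.19e-12) and antisense RNAs by 2.69 (SE 0.335, adjusted p = 0.00152). On the sense strand limma gave every sequence the same standard error, so that p rests on the spread of all 58 sequences and not on these samples of IAPA_MM alone. On that strand 41.4% of 58 tested sequences were called higher, and IAPA_MM had the highest change of the 58. On the antisense strand 32.8% were called higher, and 7 sequences exceeded IAPA_MM. On both strands together IAPA_MM rose from 27.6 ± 17.1 RPM (SD, n = 2) to 217 ± 30.4 (SD, n = 2), by 3.06 on the log2 scale (adjusted p = 0.000174 by limma), among the 43.1% called higher, and none was called lower (1 at an unadjusted p under 0.05). Without the filter on low values the 3 calls on IAPA_MM were lost, with adjusted p-values by limma of 0.0576 for both strands, 0.338 for sense and 0.0908 for antisense. Without SG_T replicate 2 the sequences called on both strands together numbered 15 rather than 25.

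The IAP group moved with it. Of the 25 entries 16 were tested, and 14 were called higher on both strands together, beside 43.1% of all 58 sequences, with a median log2 change of 2.14 against 0.80. Some of those called passed the filter through LZ_T alone, so the count is partly set by it. IAP1-MM_I was at 0.62 RPM in SG_T and 2.40 in LZ_T, and IAPLTR4_I at 0.74 and 3.295. IAPEz-int rose by 2.93, IAPLTR3-int by 2.85 and IAPLTR2b by 2.25. MMERVK10C rose by 1.02, and L1_Mm_orf2 had a change of 0.58 with an adjusted p of 0.174 by limma. B1_Mm rose by 3.01 and made up 28.8% to 35.7% of all listed RPM in these samples, where it was 1.11% to 6.50% in the first set. Relative to all listed retrotransposons the difference of IAPA_MM was 0.34 with an adjusted p of 0.518 by limma, so its share of the listed sequences was not shown to change. The summed somatic miRNAs were also higher in every LZ_T library (3484 to 8445 RPM) than in SG_T (665 to 1431 RPM), through miR-202-5p and not miR-126a-3p, which overlapped, and their part was not tested.

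The antisense share overlapped between these stages. It was 32.8% and 51.0% in SG_T and 28.7% and 37.8% in LZ_T, with 1 of 4 pairs higher in LZ_T (exact permutation p = 0.667, two-sided, where 0.333 is the smallest possible). The log2 ratio of antisense to sense differed by −0.54 (adjusted p = 0.52 by limma), with a 95% interval from −1.79 to 0.72, and 5.17% of the 58 sequences were called higher. Whether the step from spermatogonia to leptotene/zygotene differed between the sets was not tested, since SG has 1 library. The SG_T replicate 2 value rests on few reads, about 8.33 in the 50-bp run and 20.3 in the 100-bp run, and its 95% Wilson interval was 34.4% to 68.6%.

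The SG_T and SG samples can only be set side by side. IAPA_MM on both strands was at 39.7 and 15.5 RPM in SG_T and at 243 RPM in SG, an 8.79-fold lower mean. The strands differed from SG alike here, with sense RNAs 8.52-fold and antisense RNAs 9.23-fold lower. Scaled to 24- to 33-nt reads, the SG_T samples stood at 211 and 107 RPM, and SG at 814. RNAs of 11–18 nt, below the piRNA range, were at 11.1 and 17.99 RPM antisense in SG_T and 15.6 in SG. Sense RNAs of that class were at 16.6 and 22.4 RPM in SG_T and 51.9 in SG, a 2.66-fold lower mean, so the low values of this class were on the sense strand. IAPEz-int was 17.5-fold and MMERVK10C 28.3-fold lower in SG_T than in SG. The 2 runs of a sample also differed, with 1.08 to 2.17 times as much IAPA_MM RPM in the 100-bp run as in the 50-bp run.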

How the data were processed

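The deposited tables give, per library, the RPM of small RNAs that matched each consensus sequence, by strand and length. According to the methods, the authors removed abundant noncoding RNAs and miRNAs, matched reads to RepeatMasker consensus sequences with SeqMap allowing 2 mismatches, and divided reads with several best matches. Per the labels cutadapt was used, and libraries came from the TruSeq Small RNA kit. The deposited sequence lists hold whole-number read counts per sequence, which gave depth, length profiles and miRNA reads (20–24 nt, starting with the first 18 nt of the RefSeq mature sequence). The SG list had 1 last line without a count. Because reads were divided, 32.7% to 43.6% of RPM values in the 5 libraries checked came back as whole reads (within 0.05), and no count test was run.

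Entries other than retrotransposons were left out. The 2 runs of each SG_T and LZ_T sample were averaged. Groups were compared with limma 3.58.1 (R 4.3.3) on log2(RPM + 1), which understates changes of low values, for sequences whose RPM averaged 1 or more across the fitted samples, with Benjamini-Hochberg adjustment over all of them and a threshold of 0.05. Both comparisons share the LZ_T samples. Shares were tested by exact permutation (SciPy 1.17.1). The script was checked on simulated data. Named sequences were IAPA_MM, IAPEz-int, MMERVK10C, L1_Mm_orf2, B1_Mm, IAP entries of at least 10 RPM and the 5 most alike. RMER17A2 was named after its values were seen. The member and the lists were chosen with earlier results of these data known. Alternatives covered pseudocount, filter, run, scaling, length column, replicate block and each sample left out.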

Additional observations from a re-analysis of the deposited data

How the results depend on the processing

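Depth limits SG_T most, where 1 run held about 8.33 reads of IAPA_MM, and SG, PD and RS have no replicate. LZ_T against LZ: the antisense fall and the fall in the ratio of antisense to sense kept direction and call under every alternative run, and the share kept its direction. The total lost its call per 24- to 33-nt reads (−0.37), and its sequences called went from 128 to 66 with a filter of 10 RPM, where 71 were tested. The sense difference turned to −0.0634 with the first run only. Per 24- to 33-nt reads, sense RNAs were higher in both LZ_T samples than in both LZ samples, without a call. Leaving out 1 sample each gave sense values from −0.31 (without LZ replicate 1) to 0.53, including −0.13 without LZ_T replicate 1. LZ_T against SG_T: without the filter, where 211 sequences were tested, total (3.06, adjusted p = 0.0576 by limma), sense (3.23, 0.338) and antisense (2.69, 0.0908) lost their calls and 13 sequences were called rather than 25. Relative to the listed total the values were 0.34, 0.53 and 0.0585, none called, and 50 sequences were called, all lower. That total was itself 3745 and 2800 RPM in SG_T and 22388 and 23471 in LZ_T. Sequences that rose less than the total come out lower on this scale, and what raised the total was not tested. Leaving out 1 sample each gave 15 (without SG_T replicate 2) to 21 called. The antisense share difference was −17.8 to 0.48 percentage points, the latter without SG_T replicate 2, and had no value at 34–48 nt.

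Replicate numbers are shared in name only: same-numbered deviations correlated at 0.11 (LZ_T and SG_T) and −0.19 (LZ_T and LZ), over 2 pairs. With the replicate block 34 sequences were called for LZ_T against SG_T (25 without) and 127 for LZ_T against LZ (128 without), and no call on IAPA_MM changed: its totals remained at 3.06 and −1.58. With crossed numbers, added after seeing the data, 131 were called for LZ_T against LZ.

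The stage log2 ratios moved with what was counted. SG to LZ was 1.63 relative to the listed total, 0.94 per 24- to 33-nt reads, −0.0717 for sense, 2.41 for antisense, and 0.52, 0.55 and 0.73 at 11–18, 19–23 and 34–48 nt. LZ to PD was 2.01, 0.10, −1.33 and 1.40 in the same order, and −0.56, −0.24, −0.39, 1.94 and −0.49 at 11–18, 19–23, 24–27, 28–33 and 34–48 nt. PD to RS was 0.22 relative to the listed total, −0.0775 for sense, −1.06 for antisense, and 0.0663, 0.19, −2.20, −0.82 and 0.74 over the 5 lengths. SG to PD was 3.64, 1.03, −1.40 and 3.81 over the scalings and strands, and −0.0370, 0.31, 1.097, 3.29 and 0.24 over the lengths.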

Other observations

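The 2 sequencing runs of the SG_T and LZ_T samples gave a further look at IAPA_MM by strand. Sense RNAs of the 50-bp and 100-bp runs were at 19.1 and 34.3 RPM in SG_T replicate 1, 5.28 and 9.91 in SG_T replicate 2, 135 and 205 in LZ_T replicate 1 and 120.5 and 123 in LZ_T replicate 2. Antisense RNAs were at 7.43 and 18.6, 4.5 and 11.3, 52.9 and 84.2, and 67.2 and 80.5 RPM in the same order. The 100-bp run was higher on both strands in all 4 samples, and the antisense share was higher in it too, by at most 7.24 percentage points. The share of 24- to 33-nt reads was also higher in the 100-bp run of each sample.

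Sense RNAs of 34–48 nt, above the piRNA range, were at 12.2 and 6.94 RPM in LZ_T and at 4.76 and 7.30 RPM in LZ. On the sense strand this class was thus not lower in LZ_T. Its antisense RNAs were at 0.755 and 0.585 RPM in LZ_T and at 1.67 and 3.58 RPM in LZ. Antisense RNAs made up 5.84% and 7.78% of the class in LZ_T and 26.0% and 32.9% in LZ.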
